A study of Mus musculus with 6 samples.

Results

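Transcripts of 33 nuclear genes for mitochondrial fuel oxidation were followed in sorted fetal liver erythroblasts of Tfam WT and Tfam KO mice: 4 genes of the pyruvate dehydrogenase complex, 12 of the TCA cycle and 17 of fatty acid beta-oxidation. The genes were listed by name, and each was found on 1 row of its own among the 23094 rows of the deposited table that carry a gene name. The libraries were made from total RNA of CD71+Ter119+ cells taken at embryonic day 13.5 from fetal liver of mice labelled C57BL/6, 3 from Tfam WT and 3 from Tfam KO mice. CD71 is the transferrin receptor and Ter119 an antigen of the red cell lineage. Tfam encodes a protein that packages mitochondrial DNA and starts its transcription. The labels name no Cre driver, litter or sex, and do not say whether the replicates came from separate embryos, so a p-value here measures only the spread between these libraries.

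Pyruvate dehydrogenase turns pyruvate into acetyl-CoA, and beta-oxidation makes acetyl-CoA from fatty acids by shortening the chain in repeated rounds of dehydrogenation, hydration, a further dehydrogenation and thiolysis. The TCA cycle oxidises the acetyl group and passes electrons, as NADH and reduced flavin, to the respiratory chain, some of whose subunits are encoded by mitochondrial DNA. Erythroblasts also draw succinyl-CoA from the cycle for the first step of heme synthesis. All enzymes described here are encoded in the nucleus, so the comparison asks whether their mRNA levels differ where the gene for a mitochondrial DNA transcription factor is labelled as knocked out.

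With all 6 libraries, no enzyme gene passed the test of KO against WT, and the estimates were small. Of the 33 genes, 32 had a mean of at least 1 RPKM (reads per kilobase of transcript, scaled to the mapped reads of the library) and were tested, with limma on log2(RPKM + 1) and Benjamini-Hochberg adjustment over all 8302 rows tested. Adjusted p under 0.05 was reached by 0 of the 32, where 0% of all rows tested reached it, and an unadjusted p under 0.05 also by 0, where 1.2% of all rows did. Log2 fold changes, here always KO minus WT, ran from -0.38 for Mdh2 to 0.26 for Echs1, with 13 above 0 and 19 below. The median was -0.09, against -0.02 over all rows tested. This split is not fixed: quantile normalization across libraries gave 18 above and 14 below, and removing each library's dependence on transcript length gave 17 and 15, with medians of 0.003 and 0.006. A missed threshold does not show that levels were equal, so the 95% intervals are given as well. For 30 of the 32 genes the interval lay between -1 and 1, which held for 79.7% of all rows tested. The exceptions were Mdh2 and Etfb, whose intervals reached -1.14 and -1.11. These limits are a change of 2-fold either way in RPKM + 1, which is a wider range in RPKM for low genes. With 0.1 in place of 1 added to the RPKM, 30 of the 32 intervals and 69.3% of those of all rows lay within them.

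Promoter stretches are shown for the 3 genes on which results below turn: Hadha, which lies head to head with its partner Hadhb, Mdh2, the most abundant of the 33, and Acadm, the 1 gene whose KO libraries all lay above its WT libraries. Each is the 250 bases before the annotated start, from RefSeq on GRCm38.p6, on the gene's strand. The RPKM values were made on build mm9 and carry no coordinates. Capitals mark matches to the motifs described next.
Hadha, chr5:30154981-30155230, minus strand: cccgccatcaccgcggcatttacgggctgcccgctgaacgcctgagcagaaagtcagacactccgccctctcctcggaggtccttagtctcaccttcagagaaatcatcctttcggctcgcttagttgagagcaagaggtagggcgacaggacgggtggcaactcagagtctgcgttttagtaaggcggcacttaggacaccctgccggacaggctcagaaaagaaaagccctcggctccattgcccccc
Mdh2, chr5:135778399-135778648, plus strand: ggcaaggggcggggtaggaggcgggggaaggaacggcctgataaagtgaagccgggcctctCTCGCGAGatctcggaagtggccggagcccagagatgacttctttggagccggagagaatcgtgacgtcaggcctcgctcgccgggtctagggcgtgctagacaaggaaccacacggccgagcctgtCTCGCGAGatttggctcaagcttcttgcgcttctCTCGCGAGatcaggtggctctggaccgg
Acadm, chr3:153944644-153944893, minus strand: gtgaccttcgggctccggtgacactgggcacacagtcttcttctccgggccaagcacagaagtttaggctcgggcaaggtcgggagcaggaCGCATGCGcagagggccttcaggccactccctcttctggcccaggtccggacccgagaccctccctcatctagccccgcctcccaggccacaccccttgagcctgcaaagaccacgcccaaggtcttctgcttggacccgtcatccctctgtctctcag

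In the table of promoter windows (250 bases before to 50 after each start), 30 of the 33 genes had an entry, and Acaa2, Decr1 and Idh3a had none. The windows were searched on both strands for 5 motifs. The core of nuclear respiratory factor 1, CGCATGCG, a factor known for driving genes of mitochondrial proteins, was in 3 of the 30 (Acadm, Etfdh and Ogdh), and in 2.07% of all 27025 genes with a window and 5.57% of the 6379 that were also on tested rows. In Acadm it lies 159 to 152 bases before the start. The ETS core CCGGAAG was in 5 (Cpt2, Dlst, Idh3b, Idh3g and Slc25a20), in 9.93% of all genes and in 24.8% of those tested. The GATA core AGATAA was in 2 (Acadvl and Dld), against 12.7% and 7.48%, and the CCAAT box in 13, against 41.1% and 44.0%. The single site of the oestrogen-related receptors, TCAAGGTCA, was in 0 of the 30, against 0.466% and 0.266%. Another search was added after the Mdh2 sequence was seen, for the palindrome CTCGCGAG. It stands in the Mdh2 window 3 times without overlap, in none of the other 29 enzyme genes, in 1.04% of all genes and in 2.71% of those tested. Of all genes 2, Mdh2 included, had 3 or more copies. A match of letters is a description and not a measured binding site.

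Before the results, 1 library has to be named. WT replicate 3 stood apart from the other 5: its RPKM sum over named genes was 814665, against 422534 to 535013, and its log2 values correlated across tested rows at 0.930 to 0.962 with the others. It held 5526 RPKM of Rn45s, the ribosomal RNA precursor, where the rest held 782 to 1143. Its values also depended on transcript length, with a median deviation from the 6-library mean of 0.67 (log2) for the fifth of rows with the shortest transcripts and -0.52 for the longest. Tfam itself was at 7.22, 8.44 and 5.72 RPKM in WT replicates 1, 2 and 3 and at 5.92, 7.22 and 6.25 in the KO replicates, which overlap (exact two-sided permutation test, n = 3 each, p = 0.7, where 0.1 is the smallest possible), so gene-level Tfam does not check the labels. Erythroid markers were present throughout, with Slc4a1, the anion exchanger of the red cell membrane, at 3331 to 4681 RPKM. The summed level of 9 macrophage markers was 12.2 to 18.7 RPKM in WT and 4.55 to 11.7 in KO, with none at 0 throughout. The sum was lower in every KO than in every WT library, an order that 2.36% of all tested rows had. C1qb, Csf1r, Marco and Cd5l each had this order, while the groups overlapped for Emr1, C1qa, C1qc, Vcam1 and Mrc1. The summed level of 8 hepatocyte markers was 35.5 to 76.4 in WT and 12.8 to 121 in KO, with Cps1 listed at 0 in 5 of 6 libraries. Sums of 4 megakaryocyte and 6 neutrophil markers overlapped between groups (14.0 to 60.3 and 16.5 to 97.1 RPKM over the 6 libraries). So did the sum of 3 endothelial markers (0.576 to 1.35). The part of these cells in the values below was not tested, and in sorted bulk RNA fewer cells of a type cannot be told apart from less RNA per cell.

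The same length dependence was seen within the enzyme genes. WT replicate 3 held the highest of the 6 values for 17 of the 33 and the lowest for 7, while over all tested rows it was highest in 41.7% and lowest in 36.8%. Among the 16 genes with the shorter transcripts (893 to 1887 bases) its median deviation was 0.41 on the log2(RPKM + 1) scale, and it was highest in 11 and lowest in 0. Among the 17 with the longer transcripts (1916 to 4317 bases) the median was -0.05, with 6 highest and 7 lowest. Across the 33 genes, which share these libraries and are not independent replicates, the deviation of WT replicate 3 correlated with log2 transcript length at r = -0.69. For WT replicates 1 and 2 r was 0.41 and 0.62, and for KO replicates 1, 2 and 3 it was 0.41, 0.14 and 0.23. The 6 deviations of a gene sum to 0, so the negative slope of WT replicate 3 forces a positive slope on average in the rest. No conclusion is drawn from these positive values.

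**Figure D1:**
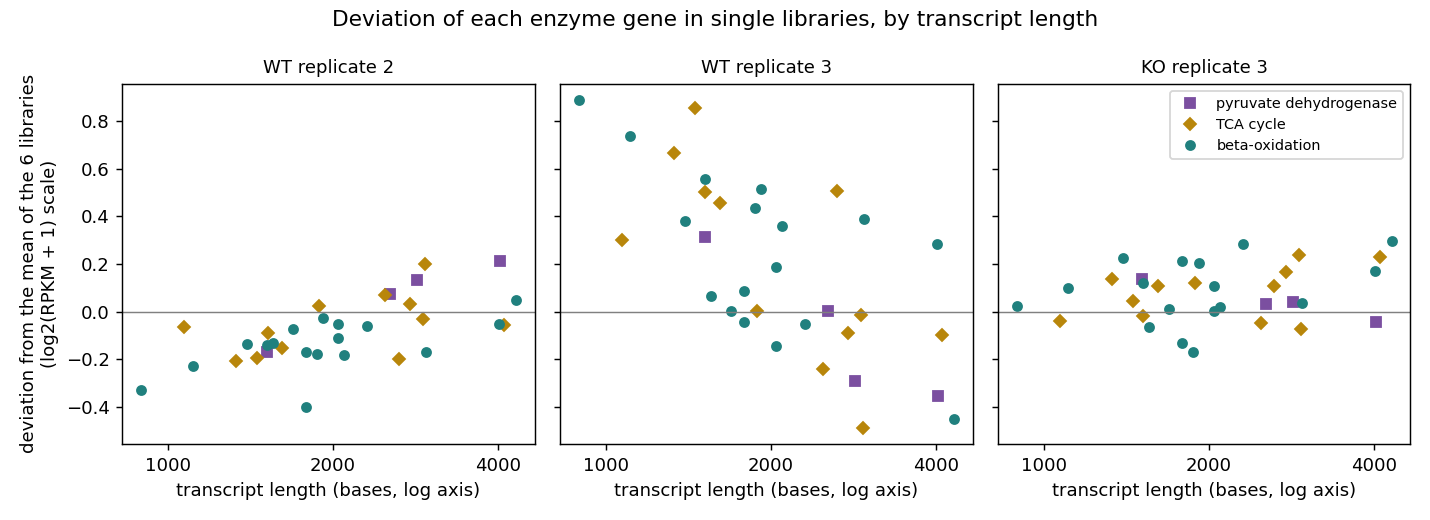
Each point is 1 enzyme gene, with transcript length (bases, log axis) across and the gene's deviation from its 6-library mean on the log2(RPKM + 1) scale upward, in WT replicate 2, WT replicate 3 and KO replicate 3. In WT replicate 3 most short transcripts, such as Etfb (893 bases), sit high. Long ones lie on both sides of 0, with Cpt1a (4317 bases) below and Hadha (4017 bases) above. In WT replicate 2 the slope runs the other way, which is partly set by the shared 6-library mean. In KO replicate 3 most points lie a little above 0.

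Each result was therefore also computed without WT replicate 3. The log2 fold changes then ran from -0.12 to 0.35, the median was -0.004, and all 32 intervals lay between -1 and 1. Of the 32 estimates 23 moved closer to 0 (71.9%), as did 71.7% of all rows tested, and the median absolute estimate went from 0.13 to 0.04. Adjusted p under 0.05 was reached by 0 of the 32, where 0.012% of rows reached it, and an unadjusted p under 0.05 by 1, Echs1, where 2.2% did.

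**Figure D2:**
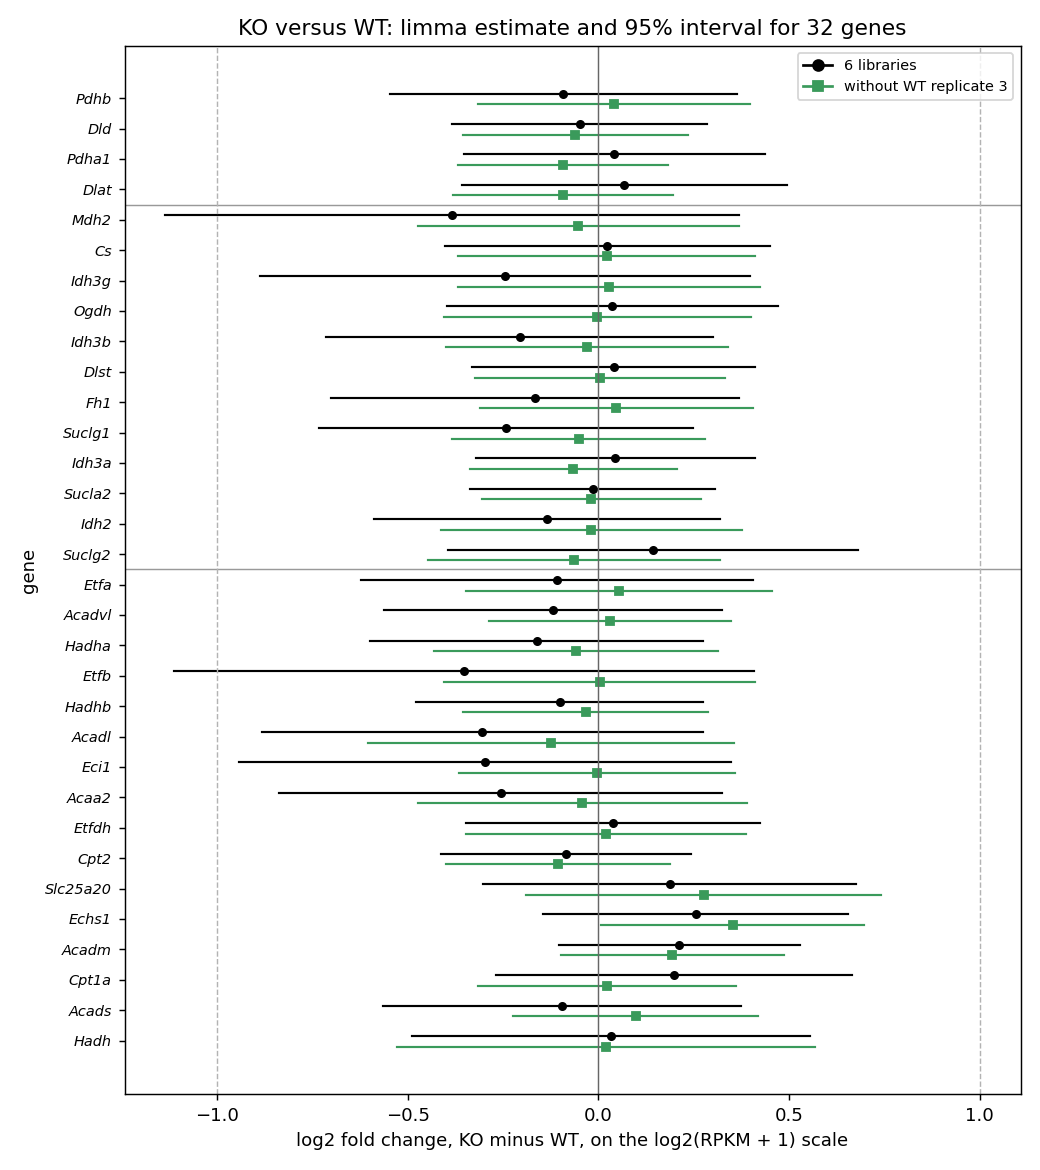
Limma estimates (points) and 95% intervals (lines) of the log2 fold change, KO minus WT, for the 32 tested enzyme genes, with all 6 libraries in black and without WT replicate 3 in green. Dashed lines mark -1 and 1. All intervals include 0 with the 6 libraries, those of Mdh2 and Etfb pass -1, and without WT replicate 3 the Echs1 interval (0.008 to 0.70) lies just above 0.

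The pyruvate dehydrogenase complex was present at uneven levels of its parts. Pdhb, the beta subunit of the decarboxylating E1 enzyme, was at 66.5, 59.3 and 83.2 RPKM in WT and at 59.6, 61.7 and 73.5 in KO. Its partner Pdha1, the alpha subunit that carries the sites of regulatory phosphorylation, was at 24.5, 25.1 and 18.5 in WT and at 21.9, 24.1 and 23.5 in KO. Pdhb thus exceeded Pdha1 in 6 of 6 libraries, by 2.36 to 3.12 times in 5 of them and by 4.50 times in WT replicate 3. Dlat, the acetyltransferase core (E2), had the lowest level of the 4, at 6.34, 7.27 and 4.58 RPKM in WT and 6.15, 6.89 and 5.91 in KO. Dld, the dihydrolipoamide dehydrogenase (E3) that this complex shares with 2-oxoglutarate dehydrogenase, was at 41.0, 43.4 and 41.2 in WT and 38.1, 41.2 and 42.0 in KO. Levels within the complex ran in the reverse order of transcript length. Lengths were 1513 bases for Pdhb, 2544 for Dld, 2848 for Pdha1 and 4035 for Dlat. The part of transcript length in this and the other ratios between genes was not tested. Not all ratios ran this way, as Ogdh (4110 bases) was above Dlst (2764 bases). The groups overlapped for all 4 genes of the complex. Their log2 fold changes were between -0.09 and 0.07, with a median of -0.004 (-0.08 without WT replicate 3) and every interval inside -0.55 to 0.50. Without WT replicate 3 every KO value of Pdha1 lay below both WT values, where 5.9% of all tested rows had this order, with a log2 fold change of -0.09 (SE 0.12).

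Of the TCA cycle enzymes, Mdh2, the mitochondrial malate dehydrogenase that closes the cycle, had the highest level of all 33 genes. It was at 199, 184 and 381 RPKM in WT and at 162, 177 and 217 in KO, so the WT value of replicate 3 was well above the other 5, which lay together. The log2 fold change was -0.38 (SE 0.32, adjusted p = 0.909 by limma) with all libraries and -0.05 (95% interval -0.47 to 0.37) without WT replicate 3. Cs, citrate synthase, which joins acetyl-CoA to oxaloacetate, was at 116, 113 and 114 RPKM in WT and 105, 110 and 136 in KO. Its log2 fold change was 0.02 (SE 0.18), and the spread was larger within KO than between the groups. Fh1, fumarate hydratase, was at 29.8, 26.9 and 44.6 in WT and at 25.2, 29.8 and 33.5 in KO. As for Mdh2, the high WT value came from replicate 3, and the estimate changed from -0.17 to 0.05 without it.

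The NAD-linked isocitrate dehydrogenase is built of a catalytic subunit (Idh3a) and the subunits Idh3b and Idh3g. Idh3a was at 20.1, 19.5 and 15.6 RPKM in WT and 18.9, 19.9 and 17.9 in KO. Idh3b was at 63.2, 56.6 and 86.9 in WT and 52.5, 56.4 and 67.9 in KO. Idh3g was at 79.1, 72.8 and 134 in WT and 69.8, 71.5 and 92.7 in KO. The mRNA of the catalytic subunit was thus the lowest of the 3 in every library. Idh3b exceeded it by 2.78 to 3.79 times and Idh3g by 3.60 to 5.17 times in 5 libraries, while in WT replicate 3 these ratios were 5.58 and 8.64. The 3 log2 fold changes were 0.04 (SE 0.15) for Idh3a, -0.21 (SE 0.22) for Idh3b and -0.24 (SE 0.27) for Idh3g, and -0.07, -0.03 and 0.03 without WT replicate 3. Idh2, the NADP-linked mitochondrial enzyme, was much lower, at 6.41, 6.24 and 8.33 RPKM in WT and 4.91, 7.67 and 6.38 in KO. Idh3b exceeded Idh2 by 7.36 to 10.7 times.

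Further round the cycle, Ogdh and Dlst encode the E1 and E2 enzymes of 2-oxoglutarate dehydrogenase, which makes succinyl-CoA. Ogdh was at 86.6, 77.7 and 75.4 RPKM in WT and 83.2, 69.3 and 94.96 in KO, and Dlst at 63.1, 64.7 and 59.4 in WT and 60.4, 61.4 and 71.1 in KO. Both groups overlapped, with log2 fold changes of 0.04 for each, and the ratio of Ogdh to Dlst was 1.13 to 1.38 in the 6 libraries, WT replicate 3 included. Succinyl-CoA ligase pairs the common alpha subunit Suclg1 with an ATP-forming (Sucla2) or a GTP-forming (Suclg2) beta subunit. Sucla2 was at 13.2, 13.4 and 13.2 RPKM in WT and 11.9, 13.1 and 14.4 in KO, and Suclg2 at 4.27, 4.75 and 2.57 in WT and 3.77, 5.43 and 3.76 in KO. The ATP-forming subunit therefore had the higher mRNA level in 6 of 6 libraries, by 2.41 to 3.84 times in 5 of them and by 5.13 times in WT replicate 3. Suclg1 was at 19.5, 18.9 and 29.0 in WT and 15.8, 20.1 and 19.9 in KO, with a log2 fold change of -0.24 (SE 0.21), or -0.05 without WT replicate 3. Over the 12 TCA cycle genes the fit put 5 above 0 and 7 below, the median was -0.08 (-0.02 without WT replicate 3), and no gene had groups that did not overlap.

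**Figure D3:**
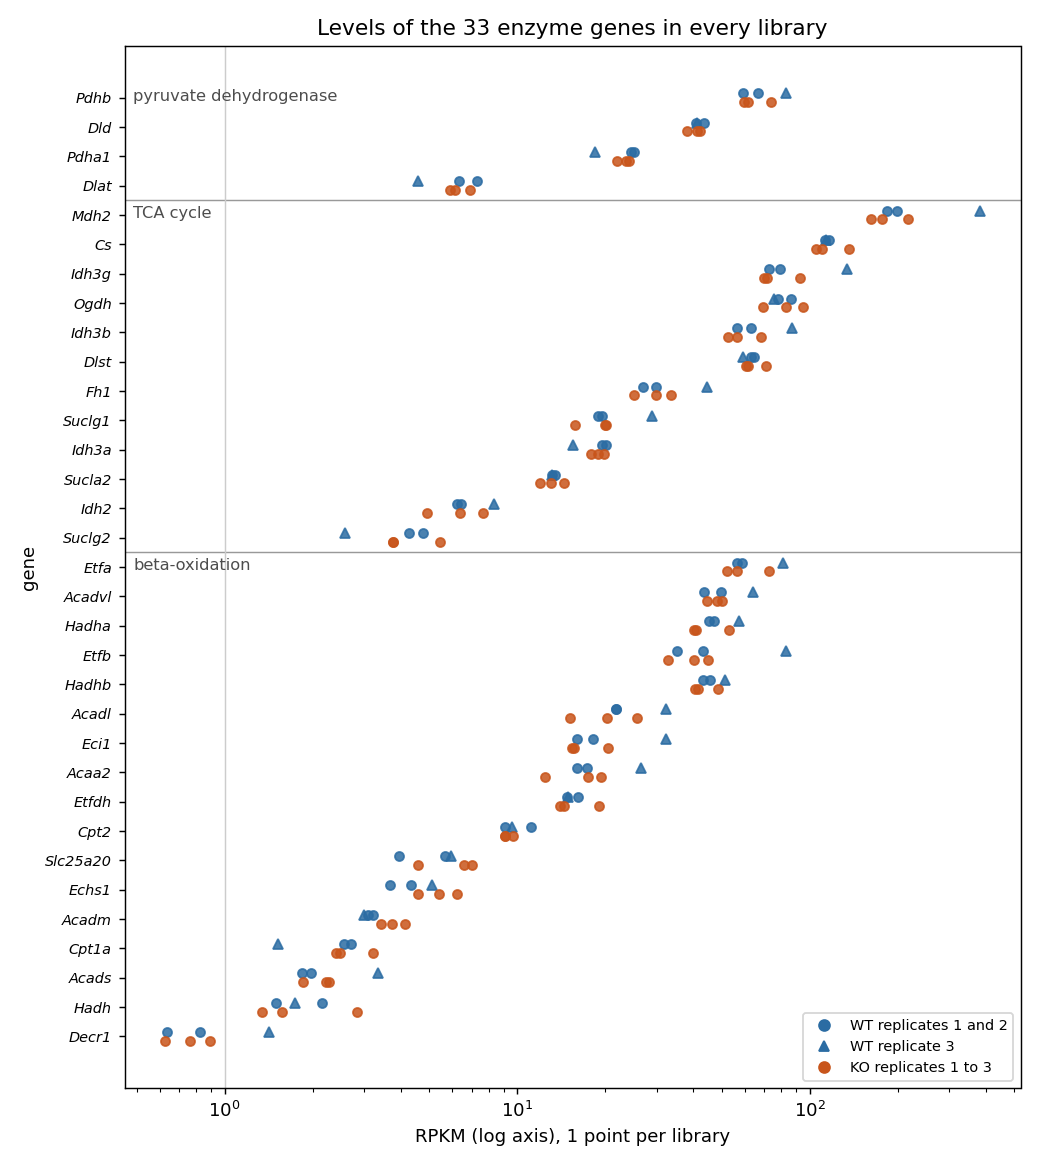
RPKM on a log axis for each of the 33 enzyme genes (rows, in order of mean level within the pyruvate dehydrogenase, TCA cycle and beta-oxidation groups), 1 point per library, with WT in blue (WT replicate 3 as triangles) and KO in orange. Levels span from 0.858 RPKM (Decr1) to 220 RPKM (Mdh2) as 6-library means, and KO and WT points intermingle for each gene but Acadm.

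Fatty acids enter the mitochondrion by way of carnitine. Cpt1a, the outer membrane carnitine palmitoyltransferase that limits the rate of entry, was at 2.70, 2.56 and 1.52 RPKM in WT and 2.40, 2.49 and 3.22 in KO. Cpt2, its partner on the inner membrane, was at 11.1, 9.05 and 9.58 in WT and 9.10, 9.07 and 9.64 in KO. Cpt2 exceeded Cpt1a in every library, by 2.99 to 6.32 times. The muscle isoform Cpt1b stands on a row shared with Chkb and BC090627, at 23.4 to 34.7 RPKM, so its own level cannot be read (named after its values were seen). Slc25a20, the carrier that exchanges acylcarnitine for carnitine, was at 5.68, 3.94 and 5.92 RPKM in WT and 6.997, 4.57 and 6.57 in KO. The groups overlapped. Each KO value was above the WT value of the same replicate number, as in 10.8% of all tested rows, though no label pairs the numbers. The log2 fold change of Slc25a20 was 0.19 (95% interval -0.30 to 0.68). It ran from 0.03 without WT replicate 2 and 0.09 without KO replicate 1 to 0.35 without KO replicate 2.

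The acyl-CoA dehydrogenases open each round of beta-oxidation on chains of different length, and those listed here differed in level. Acadvl, for very long chains, was at 49.7, 43.6 and 63.9 RPKM in WT and 48.3, 44.4 and 50.3 in KO. Acadl, for long chains, was at 21.8, 21.8 and 32.1 in WT and 15.1, 20.2 and 25.7 in KO. Acadm, for medium chains, was at 3.22, 3.09 and 2.998 in WT and 3.74, 4.12 and 3.42 in KO, and Acads, for short chains, at 1.98, 1.84 and 3.35 in WT and 2.21, 2.28 and 1.86 in KO. In every library the order was Acadvl above Acadl above Acadm and Acads. Acadvl exceeded Acadm by 10.8 to 21.3 times and Acads by 19.1 to 27.1 times, in KO as in WT libraries. This order belongs to the listed genes and is not a rule of chain length. In the separate pathway list, Acad9, also for long chains, was at 2.70 to 3.88 RPKM. Acadsb, for short branched chains, was at 10.1 to 12.8 RPKM. Both were named after their values were seen.

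Acadm was the 1 enzyme gene whose groups did not overlap, with every KO library above every WT library. Over all tested rows 2.18% had this order and 4.54% had groups that did not overlap in either direction, so 1 of 32 is near the background. Acadm had means of 3.10 ± 0.112 RPKM in WT and 3.76 ± 0.352 in KO (SD, n = 3), and the difference did not pass the limma test (log2 fold change 0.21, SE 0.13, 95% interval -0.10 to 0.53, adjusted p = 0.909). Without WT replicate 3 it was 0.19 (adjusted p = 1). In no enzyme gene did every KO library lie below every WT library, an order found in 2.36% of rows. The macrophage marker sum was lower in the same 3 KO libraries, and its part in the Acadm values was not tested.

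Among the listed genes, the later steps of the round showed a similar contrast between enzymes for long and for short chains. Hadha and Hadhb encode the alpha and beta subunits of the trifunctional protein, which carries out the remaining steps on long chains at the inner membrane. Hadha was at 47.2, 45.3 and 57.3 RPKM in WT and 40.9, 40.2 and 52.9 in KO, and Hadhb at 45.5, 43.3 and 51.4 in WT and 40.6, 41.4 and 48.4 in KO. Their ratio was 0.971 to 1.12 in the 6 libraries, with a median of 1.04. In the RefSeq annotation of GRCm38.p6 the 2 genes are read in opposite directions on chromosome 5, with 272 bases between their first bases, so the Hadha stretch printed above covers most of the upstream region of Hadhb and their windows of 300 bases share 228. Both had lower KO than WT values within each numbered pair, where 20.1% of all tested rows did. Their log2 fold changes were -0.16 (SE 0.19) and -0.10 (SE 0.16), and -0.06 and -0.03 without WT replicate 3. With the length trend of each library removed they were -0.25 and -0.03.

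The listed matrix enzymes Echs1 and Hadh, which act on shorter chains, were lower than the trifunctional protein. Echs1, the short-chain enoyl-CoA hydratase, was at 3.67, 4.32 and 5.11 RPKM in WT and 6.24, 5.39 and 4.58 in KO. The groups overlapped through WT replicate 3 and KO replicate 3, and the log2 fold change was 0.26 (SE 0.17, adjusted p = 0.909). Without WT replicate 3 every KO value was above both WT values, as in 5.42% of rows, and the estimate was 0.35 (SE 0.15, unadjusted p = 0.0462 and adjusted p = 1 by limma). Hadh, the short-chain 3-hydroxyacyl-CoA dehydrogenase, was at 2.15, 1.503 and 1.73 in WT and 1.34, 2.84 and 1.57 in KO. Hsd17b10, a further enzyme of this kind, was read from the separate pathway list given below and named after its values were seen. It was at 24.2, 20.6 and 49.1 RPKM in WT and 22.3, 24.9 and 30.3 in KO. The size of the contrast between long and short chains thus depends on which genes are listed. Hadhb exceeded Hadh by 14.6 to 30.9 times. KO replicate 2, which had the highest Hadh, also had the highest hepatocyte marker sum (121 RPKM, against 12.8 to 76.4 in the other 5). KO replicate 1 went the other way, with a sum of 71.4 RPKM and the lowest Hadh. What part hepatocyte RNA has in Hadh was not tested.

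Acaa2, the matrix thiolase, was at 17.3, 16.0 and 26.6 RPKM in WT and 12.5, 17.5 and 19.4 in KO, which overlap. Eci1 and Decr1 are the auxiliary enzymes that move or remove double bonds of unsaturated chains. Eci1 was at 18.2, 16.0 and 32.3 in WT and 15.4, 15.6 and 20.4 in KO. Its estimate of -0.30 (SE 0.27) became -0.004 without WT replicate 3, as the other WT values lay among those of KO. Decr1 was at 0.823, 0.637 and 1.41 in WT and 0.626, 0.762 and 0.888 in KO, above 1 RPKM in WT replicate 3 alone, and was not tested because its mean was under 1.

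Electrons from the acyl-CoA dehydrogenases reach the respiratory chain through the electron transfer flavoprotein (Etfa and Etfb) and its ubiquinone oxidoreductase Etfdh. Etfa was at 58.7, 56.3 and 81.1 RPKM in WT and 52.0, 56.5 and 72.6 in KO. Etfb was at 43.3, 35.1 and 82.7 in WT and 32.8, 40.3 and 45.0 in KO, and Etfdh at 16.2, 14.8 and 14.9 in WT and 14.5, 14.0 and 19.1 in KO. Etfb, with the shortest transcript of the 33 genes, had the second lowest estimate after Mdh2 (-0.35, SE 0.32), and it was 0.003 without WT replicate 3. Etfa exceeded Etfb by 1.36 to 1.61 times in 5 libraries, and in WT replicate 3 the ratio was 0.981. Over the 16 tested beta-oxidation genes the fit put 6 above 0 and 10 below, with a median of -0.10. Without WT replicate 3 these counts were 10 and 6, with a median of 0.02.

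**Figure D4:**
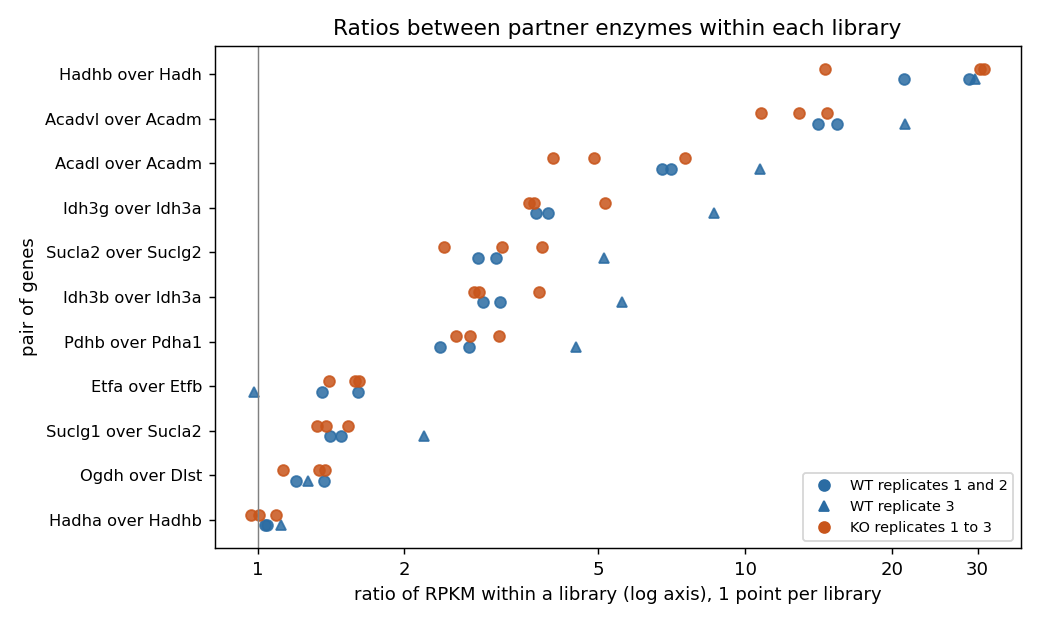
Ratio of RPKM between partner enzymes within each library (log axis), 1 point per library, with WT in blue (WT replicate 3 as triangles) and KO in orange. Hadha over Hadhb stays between 0.971 and 1.12, Acadvl over Acadm between 10.8 and 21.3, and WT replicate 3 lies at one end of most rows.

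Genes that complete or feed these pathways were read from a separate list of 73, all found on a row. Of these, 49 were tested, 24 with an estimate above 0 and 25 below, 0 of them at an adjusted or unadjusted p under 0.05, with a median of -0.001. Without WT replicate 3 an unadjusted p under 0.05 was reached by 1 of the 49, where 2.2% of all rows reached it: Pdk2, a kinase that inhibits pyruvate dehydrogenase, with a log2 fold change of 0.34 (95% interval 0.05 to 0.63) against 0.10 with all libraries. With the replicate block it was reached by 2, where 3.9% of rows reached it: Acsl5, a long-chain acyl-CoA synthetase (-0.49), and Ppard, a nuclear receptor for fatty acids (0.47). With the length trend removed it was reached by 1, Eci2 (0.27), where 159 of 8261 rows reached it. With the block and length removal together it was reached by 4, where 7.2% of rows reached it. Without WT replicate 1 it was reached by 1, where 103 of 8302 rows reached it. In each fit 0 of the 49 reached an adjusted p under 0.05 by limma. Among the 49 the groups overlapped for every gene, where 4.54% of all tested rows had groups that did not. Of the 73, 1 had groups that did not overlap, Acot2, a mitochondrial acyl-CoA thioesterase. It was at 0.0431, 0.0570 and 0.0442 RPKM in WT and 0.181, 0.156 and 0.119 in KO. These levels lie far below the filter, and Acot2 was not tested in the main fit. The share of rows below the filter with such groups was not computed. With no filter on low values, 2 of the 73 had an unadjusted p under 0.05 by limma, where 388 of 15868 rows did. Both were higher in KO, and 0 of the 73 reached an adjusted p under 0.05. Sdha and Pcx, named after their values were seen, were at levels like those of the more abundant genes above. Sdha, the flavoprotein of succinate dehydrogenase, was at 62.9, 63.1 and 62.1 RPKM in WT and 57.1, 58.2 and 63.5 in KO. Pcx, pyruvate carboxylase, which refills the cycle with oxaloacetate, was at 80.9, 75.7 and 87.5 in WT and 87.2, 68.7 and 83.1 in KO. For both genes the groups overlapped.

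Within numbered pairs, 2 of the 32 tested enzyme genes (Acadm and Slc25a20) were higher in KO in all 3 pairs, where 10.8% of all tested rows were, and 7 (Mdh2, Idh3b, Idh3g, Acadl, Hadha, Hadhb and Eci1) were lower in all 3, where 20.1% were. With the replicate number as a block in the fit, adjusted p under 0.05 was reached by 0 of 32 and by 0% of all rows, and unadjusted p under 0.05 by 0 of 32 and 3.9% of rows. With the length trend of each library also removed, 3 of 32 had an unadjusted p under 0.05, where 7.2% of all rows did, so the count is near the background. All 3 estimates were above 0: Slc25a20 (log2 fold change 0.30, SE 0.10), Acadm (0.28, SE 0.10) and Echs1 (0.40, SE 0.14). The next 3 by unadjusted p did not reach 0.05 and were all below 0: Hadha (-0.25, SE 0.10), Mdh2 (-0.23, SE 0.10) and Acadl (-0.21, SE 0.11). In this limma fit each of these genes had an adjusted p = 0.652 over all rows.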

How the data were processed

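RNA of the 6 libraries was prepared with a TruSeq kit, per the labels' protocols. The deposited RPKM values were made with TopHat and Cufflinks on build mm9, per the submitters' processing notes; the sources used here do not give versions, annotation, strand or how reads shared by near-identical copies were counted. Of 23119 rows, 25 carrying a number for a name (0.158% of the RPKM sum on average) were left out. Rows naming several genes (492) were kept. Rows listed at 0 in every library numbered 7226, and whether a listed 0 is a failed estimate was not tested. Absolute depth is unknown. Ratios to WT replicate 2 of RPKM values up to 0.05 fell on whole-read steps (within 0.03, log2) for 80.3%, 44.4%, 80.7% and 82.5% of rows in WT replicate 1 and KO replicates 1, 2 and 3, which placed their depths at 88.9%, 92.7%, 84.4% and 79.6% of WT replicate 2. WT replicate 3 was not resolved (24.0% on steps).

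The 8302 rows averaging at least 1 RPKM were put on the log2(RPKM + 1) scale and tested by limma 3.58.1 (R 4.3.3), its variance prior following the mean level; a fold change on this scale understates changes of low genes. Transcript lengths (median of a gene's protein-coding transcripts, GENCODE M21) matched 99.5% of tested rows. The test was run on simulated data with independent noise for each gene and library. These lacked the length dependence and the same-number correlation of the real libraries, so the check does not cover them. Same-numbered libraries deviated together from their group means (r = 0.46, 0.17 and 0.53 for numbers 1, 2 and 3). The main fit did not pair them, and the numbers served as pairs only in the replicate block fits and the counts within numbered pairs. No label says that the numbers pair libraries, and WT replicate 2 correlated more with KO replicate 1 (r = 0.40) than with KO replicate 2. The enzyme genes, the lists, the motifs and the naming rule were chosen with earlier results of these data known. The rule names each enzyme gene, Tfam, and genes of the wider pathway list whose groups do not overlap or whose unadjusted p is under 0.05; other names were chosen after their values were seen. Alternatives were other pseudocounts, filters and scalings, no variance trend, the replicate block, a length correction and leaving out each library. Results for some genes and 1 marker list are not reported here.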

Additional observations from a re-analysis of the deposited data

How the results depend on the processing

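No enzyme gene that was tested passed an adjusted p of 0.05 under any of the 15 alternatives. These were pseudocount 0.1, no filter, a mean RPKM of at least 5 (which left 26 of the 32 to test), quantile normalization and median-ratio scaling. The others were no variance trend, the replicate block, removal of the length trend with and without the block, and leaving out each library. The medians of the 3 groups moved by less than the SD of the libraries' median deviations. That SD includes the library left out, so leaving out a library can hardly move a median past it, and no conclusion is drawn. The beta-oxidation median ran from -0.18 without WT replicate 2 to 0.02 without WT replicate 3. Over all rows, leaving out 1 library gave 0 to 2 calls, none of them an enzyme gene. The replicate block changed no call. Signs of these small estimates did turn. Quantile normalization gave 0.037 for Pdhb, 0.040 for Dld, 0.0021 for Sucla2, 0.00029 for Acadvl, 0.0044 for Hadhb, -0.047 for Hadh and 0.018 for Etfa. Removing the length trend, with or without the block, gave 0.056 for Pdhb, -0.023 for Dlat, 0.077 for Idh2, -0.060 for Ogdh, 0.080 for Sucla2, 0.039 for Cpt2, 0.0018 for Acads and 0.057 for Etfa. Leaving out each library in turn, estimates ran from -0.094 to 0.12 for Pdha1, -0.20 to 0.041 for Pdhb, -0.092 to 0.19 for Dlat, -0.090 to 0.097 for Cs, -0.065 to 0.11 for Idh3a, -0.41 to 0.027 for Idh3g, -0.27 to 0.010 for Idh2, -0.070 to 0.15 for Ogdh, -0.034 to 0.082 for Dlst, -0.079 to 0.047 for Sucla2, -0.064 to 0.28 for Suclg2, -0.31 to 0.046 for Fh1, -0.24 to 0.031 for Acadvl, -0.21 to 0.098 for Acads, -0.18 to 0.17 for Hadh, -0.25 to 0.054 for Etfa, -0.60 to 0.0030 for Etfb and -0.096 to 0.12 for Etfdh. WT replicate 3 alone turned 12 of 32 signs. Depth is unknown without counts, and with 3 libraries a group the median SE over the 32 genes was 0.19 (log2).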
